A study of Mus musculus with 12 samples.

Results

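The 9 genes described here encode the subunits of the AMPA receptors (Gria1 to Gria4) and of the kainate receptors (Grik1 to Grik5). They were taken by symbol from a table of 14909 genes, and all 9 were present and had enough counts to be tested. Frontal cortex from C57BL/6 mice was profiled by bulk RNA sequencing in 7 wild-type (WT 1 to WT 7) and 5 Upf3b-null mice (KO 1 to KO 4 and KO 6), with 1 library per mouse, to find genes whose expression differs when Upf3b is absent. Upf3b encodes a factor of nonsense-mediated mRNA decay, which degrades transcripts with premature stop codons. The labels give neither age nor sex, and they do not describe the null allele or the C57BL/6 substrain.

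AMPA and kainate receptors are glutamate-gated cation channels assembled from subunits around a shared pore. AMPA receptors carry most fast excitatory transmission in cortex, and their subunit mix sets how long they open and whether they pass calcium. Kainate receptors act on both sides of the synapse and also tune release. Grik1, Grik2 and Grik3 encode subunits that can form channels alone, whereas those of Grik4 and Grik5 bind agonist with high affinity and need a partner of the first kind.

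The coding sequence around the pore is shown because it marks the family and the site at which RNA editing changes the channel, a difference that counts per gene do not hold. In each sequence below, 60 bases from GENCODE M21 transcripts (mm10 build) are written on the coding strand, and capitals mark the codon of the Q/R site, which is the position edited in Gria2, Grik1 and Grik2.
Gria1: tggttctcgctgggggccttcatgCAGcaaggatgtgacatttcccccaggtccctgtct
Gria2: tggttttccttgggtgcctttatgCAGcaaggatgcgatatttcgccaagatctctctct
Gria3: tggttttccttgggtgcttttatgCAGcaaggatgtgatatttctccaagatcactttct
Gria4: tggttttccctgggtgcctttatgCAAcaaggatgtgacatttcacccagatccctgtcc
Grik1: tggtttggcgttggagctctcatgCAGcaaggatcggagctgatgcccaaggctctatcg
Grik2: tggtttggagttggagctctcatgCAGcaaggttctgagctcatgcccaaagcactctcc
Grik3: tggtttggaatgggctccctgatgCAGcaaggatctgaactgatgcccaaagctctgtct
Grik4: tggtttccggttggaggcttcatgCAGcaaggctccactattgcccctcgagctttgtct
Grik5: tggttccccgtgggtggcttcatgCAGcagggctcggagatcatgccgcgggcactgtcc

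The genome encodes CAG at this codon in 8 genes and CAA in Gria4. The Gria2 codon lies at chr3:80706911-80706913 on the minus strand. Gria2 and Gria3 share 55 of the 60 bases and Grik1 and Grik2 share 52, while Grik4 shares 42 with Grik5 and 36 with Grik3. Counts of the 9 genes hold edited and unedited transcripts together.

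The genes lie on 8 chromosomes of mm10. Gria1 spans 57011387 to 57330244 on chromosome 11, Gria2 80681450 to 80802835 on chromosome 3, and Gria4 4417896 to 4796234 on chromosome 9. Gria3 spans 41400854 to 41678601 on chromosome X, 4.29 Mb from Upf3b, so of the 9 genes it is the one on the chromosome of the null allele. Grik1 spans 87895900 to 88290265 on chromosome 16, Grik2 49094833 to 49788766 on chromosome 10, Grik3 125490700 to 125714173 on chromosome 4, Grik4 42518135 to 42944493 on chromosome 9 and Grik5 25009849 to 25072346 on chromosome 7. Of the 9, GENCODE annotates Gria2, Gria3 and Grik5 with a transcript of the nonsense-mediated decay class, with 1, 1 and 2 such transcripts, compared with 25.9% of the 14437 table genes that matched by symbol. Grik2 has none of that class, but 1 of its annotated transcripts has a coding end more than 50 bases before the last exon junction. No other gene of the table overlaps the exons of the 9 genes. Reads of such a transcript were not counted apart from other reads of its gene.

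Libraries held 4684039 to 5425774 counts in WT and 4990643 to 6617759 in KO, and KO 1 was the KO library with a depth in the WT range. The label check held in every library, with 157 to 219 counts of Upf3b in WT and 11 to 24 in KO. All 9 fixed markers of excitatory cortical neurons were counted in every library. WT 4 and KO 2 stood apart from their groups: the summed level of 9 excitatory neuron markers was lowest in them within their groups (1548 and 1395 CPM), and 7 striatum markers summed to 1356 and 1120 CPM, the highest of each group. WT 4 and KO 2 also had the highest sums of their groups for 4 hippocampus markers (279 and 270 CPM) and 9 GABA interneuron markers (1187 and 1118 CPM). CPM is the usual depth-scaled count, here with library sizes adjusted by TMM factors. WT 6 and WT 7 were close to sampling noise (a chi-square of 1.02 per degree of freedom; the other pairs within a group had 1.20 to 7.05), but 16 of 14619 genes differed between them, and they were kept as separate libraries. Each gene was tested with edgeR's quasi-likelihood test in a fit of all 14274 testable genes, with Benjamini-Hochberg adjustment over them and a call at an adjusted p under 0.05. No source states that each library came from a separate litter or day, so the tests measure the spread between these mice.

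Per exonic length, Grik5 and 3 of the 4 AMPA subunits were the most abundant members. In WT the level of Grik5 was 66.3 ± 2.10 CPM per exonic kb (SD, n = 7), that of Gria1 62.7 ± 3.57, that of Gria3 57.7 ± 2.86 and that of Gria2 48.5 ± 3.10. Gria4, a subunit prominent in fast-spiking interneurons, followed at 29.0 ± 1.76, and Grik3 at 22.1 ± 2.27. The remaining kainate subunits were low, with Grik2 at 9.36 ± 2.03, Grik4 at 8.27 ± 0.774 and Grik1 at 6.03 ± 0.593, so Grik5 was 11.0 times as abundant as Grik1. The WT ranges of neighbours in this order overlapped for Grik5 and Gria1, for Gria1 and Gria3 and for Grik2 and Grik4, and did not overlap for the other neighbours. KO had the same order except that Grik4 ranked above Grik2. With the exons of all GENCODE transcripts as the length, Gria1 came first (60.0) before Grik5 (48.2), Gria2 (32.7) came before Gria3 (31.0), and Grik4 (8.17) before Grik2 (6.73).

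**Figure D1:**
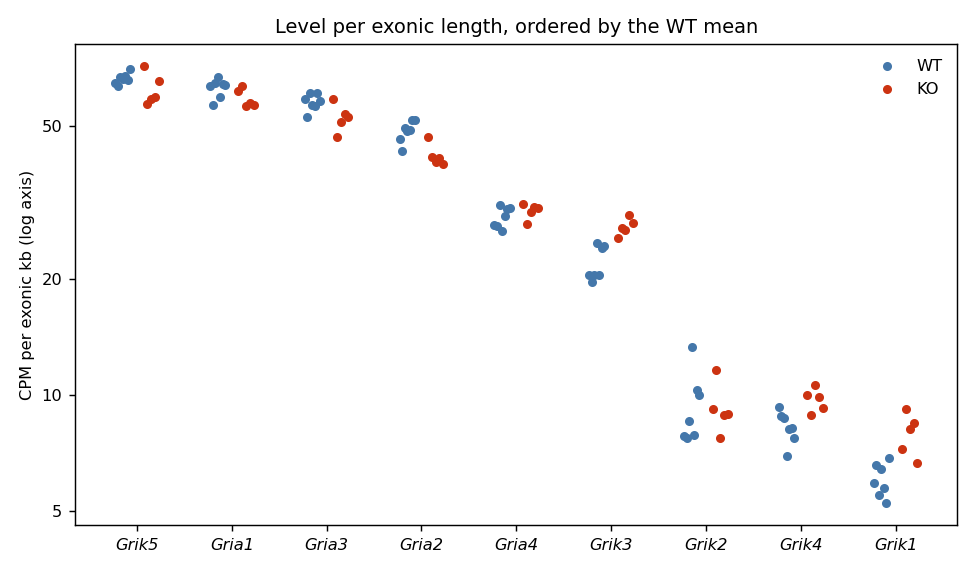
Level of each subunit gene in CPM per exonic kb on a log axis, ordered by the WT mean, with 1 point per library (blue WT, red KO). The points run from about the level of Grik1 (WT mean 6.03) to that of Grik5 (WT mean 66.3), and Gria2 sits lower and Grik3 higher in KO.

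In the KO the kainate subunits Grik1, Grik3 and Grik4 were higher and the AMPA subunit Gria2 was lower. That is 3 of 9 members called higher, where 15.3% of all tested genes were, and 1 called lower, where 14.4% were. The other 5 were not called. The median log2 fold change was 0.232 over the 5 kainate genes and -0.113 over the 4 AMPA genes, against 0.034 over all tested genes. In bulk tissue fewer cells of a type and less RNA per cell cannot be told apart. The fold changes have to be read beside a trend that ran through the whole table: genes were ranked by their count per exonic base and split into 10 bins, and the median log2 fold change was 0.246 in the sparsest bin and -0.182 in the densest. A fit with offsets that take this trend out library by library (count-density offsets) is therefore given beside the fold change of each of the 9 genes, together with a fit that has the log2 library total as a covariate. With density offsets 2 of the 9, Grik1 and Grik3, were called higher, where 8.44% of all tested genes were, and 0 lower, where 7.97% were. The median log2 fold change was then 0.115 over the kainate and 0.038 over the AMPA genes, against 0.003 over all tested genes. With the library total in the model edgeR called 0 of the 9 higher and 0 lower, against 0.588% and 0.0771% of all tested genes. The medians in that fit were 0.181 (kainate), -0.013 (AMPA) and 0.001 (all tested genes). Library total and genotype largely coincide: the KO libraries other than KO 1 held 6068895 to 6617759 counts, and the WT libraries at most 5425774. That fit therefore cannot tell depth from genotype, and a call lost in it is assigned to neither. At an unadjusted p under 0.05 edgeR had 3 higher (Grik1, Grik3 and Grik5) and 1 lower (Gria2) with density offsets, and 2 higher (Gria4 and Grik4) and 0 lower with the library total in the model.

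**Figure D2:**
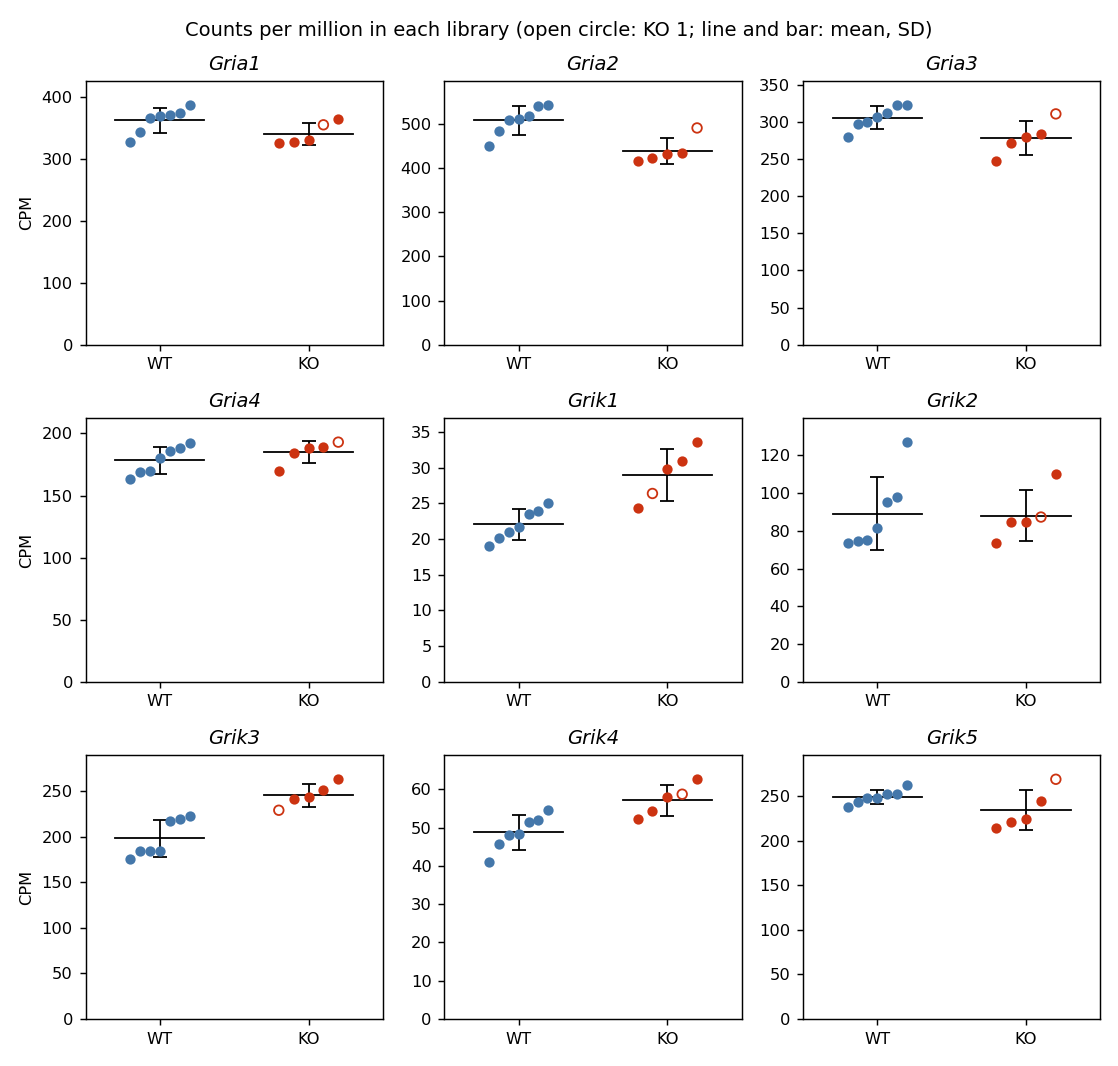
CPM of each of the 9 genes in every library, with WT in blue and KO in red, a line at the mean and a bar for the SD. KO 1, drawn as an open circle, is at 491 CPM for Gria2 while the other KO libraries lie between 417 and 435, and for Grik3 the KO libraries all lie above the WT libraries.

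Grik3, whose protein forms kainate receptors of low glutamate sensitivity, was the member that separated the groups. It stood at 176 CPM in the lowest, 184 in the median and 223 in the highest WT library. KO 1, KO 2, KO 3, KO 4 and KO 6 had 229, 243, 241, 263 and 251 CPM. Each KO library thus lay above each WT library, as in 5.84% of tested genes. The mean was 198 ± 20.4 in WT (SD, n = 7) and 245 ± 12.5 CPM in KO (SD, n = 5), a log2 fold change of 0.31 ± 0.06 (SE) (edgeR adjusted p = 0.00277). The exact permutation test, two-sided and over 792 arrangements, gave p = 0.00253, the smallest it can give. The value with density offsets was 0.32 ± 0.06 (adjusted p = 0.00495), and with the library total in the model it was 0.20 ± 0.11 (adjusted p = 0.441). Grik3 lay in the seventh of the 10 density bins, whose median was 0.018, and its fold change was above that of 97.0% of the genes there.

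The WT libraries of Grik3 formed an upper set, WT 4, WT 6 and WT 7 at 217 to 223 CPM, and a lower set of 4 at 176 to 184. The same 3 WT libraries had the highest striatum marker sums of their group (1356, 919 and 1123 CPM, against 565 to 776 in the other WT libraries). The KO libraries did not follow this order. KO 2 had the highest KO sum (1120 CPM) at 243 CPM of Grik3, and KO 4 had the most Grik3 (263 CPM) at a sum of 776. With the log2 striatum sum as a covariate, a setting chosen after seeing the data, the log2 fold change of Grik3 was 0.31 (edgeR adjusted p = 2.40e-04). That fit called 2866 of 14274 genes higher and 2357 lower, against 2183 and 2050 without the covariate. The striatum sums of the groups overlapped, so the covariate could move a fold change little. The part of striatal tissue in the change of Grik3 was not tested.

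Grik1, a subunit known from cortical interneurons, had the largest fold change of the 9 with TMM scaling, whereas Grik3 had it with density offsets (0.32) and Grik4 with the library total in the model (0.30). WT libraries ran from 19.1 over a median of 21.7 to 25.0 CPM, from 89 to 127 counts. The KO libraries held 26.4 (KO 1), 33.6 (KO 2), 29.9 (KO 3), 30.9 (KO 4) and 24.4 CPM (KO 6), so 4 of 5 lay above all WT libraries and KO 6 lay inside the WT range. The mean went from 22.1 ± 2.17 to 29.0 ± 3.67 CPM, a log2 fold change of 0.40 ± 0.09 (SE, edgeR adjusted p = 0.00467; exact permutation p = 0.00505). Its density bin had a median of 0.147. With density offsets the value was 0.27 ± 0.08 (adjusted p = 0.0390), with the same offsets and KO 1 left out 0.28 (adjusted p = 0.0527), and with the library total in the model 0.18 ± 0.14 (adjusted p = 0.632). Of the 9 fixed markers of GABA interneurons 0 were called higher by edgeR and 2 lower (2 and 2 at an unadjusted p under 0.05; 0 and 2 by DESeq2; 0 and 0 with density offsets, with 0 and 1 unadjusted), and their sums overlapped, at 922 to 1187 CPM in WT and 931 to 1118 in KO.

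Grik4, a high-affinity subunit, was called higher without a gap between the groups. The WT libraries had a lowest, median and highest value of 40.9, 48.4 and 54.7 CPM. KO 1, KO 2, KO 3, KO 4 and KO 6 had 58.7, 52.1, 62.6, 58.0 and 54.3 CPM, and KO 2 and KO 6 lay inside the WT range. The log2 fold change was 0.23 ± 0.07 (SE, edgeR adjusted p = 0.0193; exact permutation p = 0.0101), in a density bin with a median of 0.119. It was 0.12 ± 0.08 with density offsets (adjusted p = 0.340) and 0.30 ± 0.12 with the library total in the model (adjusted p = 0.307), and the call was also lost without KO 3 (0.20, adjusted p = 0.0611).

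Grik5, the other high-affinity subunit and the most abundant kainate gene, was not called. WT libraries ran from 238 over 248 to 263 CPM. In KO 1, KO 2, KO 3, KO 4 and KO 6 the values were 269, 214, 221, 224 and 245 CPM, so KO 1 was above and KO 2, KO 3 and KO 4 below all WT libraries. The log2 fold change was -0.09 ± 0.05 (edgeR adjusted p = 0.211), while the median of its density bin, the highest of the 10, was -0.182. The sign turned with density offsets, to 0.08 ± 0.03 (adjusted p = 0.127), and with the library total in the model, to 0.10 ± 0.06 (adjusted p = 0.514). Without KO 1 the value with TMM scaling was -0.14 (adjusted p = 0.0168).

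Grik2, whose protein is the main channel-forming kainate subunit of principal neurons, varied most within groups and was not called. The WT libraries had a lowest, median and highest value of 73.4, 81.6 and 127 CPM, with a coefficient of variation of 21.6%, against 3.17% to 10.3% for the other members. The KO libraries had 87.3, 110, 73.5, 84.5 and 84.8 CPM (KO 1, KO 2, KO 3, KO 4 and KO 6). The log2 fold change was -0.02 ± 0.13 (edgeR adjusted p = 0.926), and it was 0.08 without WT 4 (adjusted p = 0.574). It was -0.13 ± 0.12 with density offsets (adjusted p = 0.503) and -0.18 ± 0.23 with the library total in the model (adjusted p = 0.773). The 4 libraries with the most Grik2 were WT 4 (127 CPM), KO 2 (110), WT 6 (97.7) and WT 7 (95.2), and the same 4 had the highest striatum marker sums of all 12 (1356, 1120, 919 and 1123 CPM). Grik4 was lowest in WT 4 (40.9) and WT 7 (45.6). None of the 7 striatum markers was called by edgeR or DESeq2 or had an unadjusted p under 0.05 in edgeR, none was at 0 in any library, and their sums ran from 565 to 1356 CPM in WT and from 637 to 1120 in KO. With the striatum sum as a covariate, edgeR gave Grik2 a log2 fold change of -0.02 (adjusted p = 0.727) and Grik4 one of 0.24 (adjusted p = 0.00126). These values have to be read beside the larger number of calls over all genes in that fit, 2866 higher and 2357 lower.

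**Figure D3:**
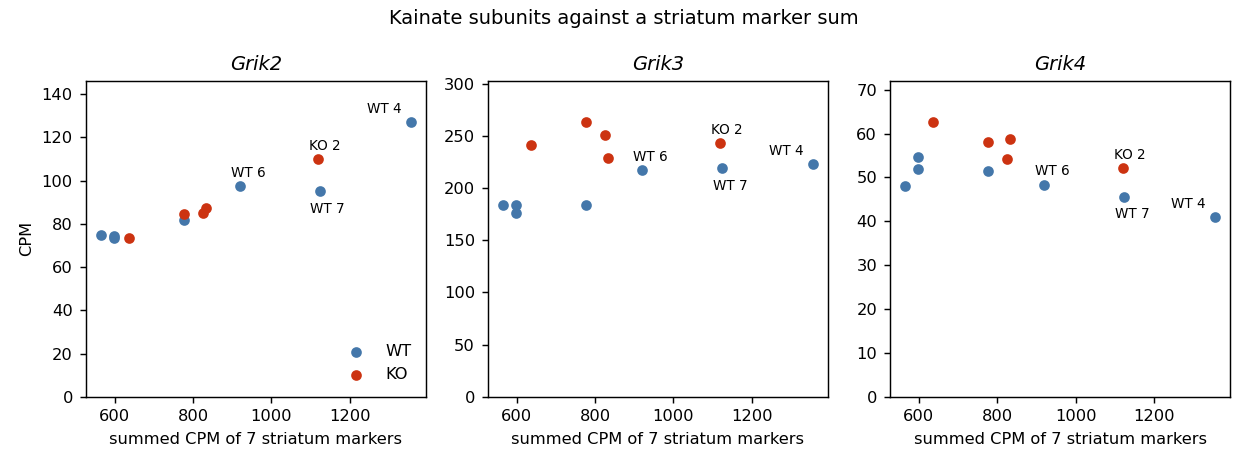
CPM of Grik2, Grik3 and Grik4 against the summed CPM of 7 striatum markers in the 12 libraries (blue WT, red KO). Grik2 is highest in WT 4 (127 CPM at a sum of 1356), Grik4 is lowest there (40.9 CPM), and for Grik3 the 5 KO libraries lie above the 7 WT libraries.

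Among the AMPA subunits Gria2 was the one called with TMM scaling. Its edited protein makes the receptors impermeable to calcium. WT libraries ran from 450 over a median of 512 to 543 CPM, and KO 1, KO 2, KO 3, KO 4 and KO 6 had 491, 435, 423, 433 and 417 CPM. The 4 deeper KO libraries lay below all WT libraries, and KO 1, with a depth in the WT range, lay inside it. The mean went from 508 ± 32.5 to 440 ± 29.5 CPM, a log2 fold change of -0.21 ± 0.05 (SE, edgeR adjusted p = 0.0103; exact permutation p = 0.00758). The median of its density bin was -0.088. With density offsets the value was -0.10 ± 0.05 (adjusted p = 0.146) and with the library total in the model -0.05 ± 0.07 (adjusted p = 0.788), so the call held in neither.

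Gria1, whose protein is moved into synapses during potentiation, was not called. The WT values had a lowest, median and highest of 327, 369 and 387 CPM, and the KO values were 355, 365, 325, 330 and 327 CPM (KO 1, KO 2, KO 3, KO 4 and KO 6), so the groups overlapped. The log2 fold change was -0.09 ± 0.05 (edgeR adjusted p = 0.174) and 0.07 ± 0.05 with density offsets (adjusted p = 0.390), where the sign turned, and -0.05 ± 0.08 with the library total in the model (adjusted p = 0.822). Gria3, the X-linked member and a gene of intellectual disability, ran from 280 over 307 to 323 CPM in WT. KO 1 had 311 CPM and KO 2, KO 3, KO 4 and KO 6 had 247, 272, 284 and 280 CPM. Its log2 fold change of -0.14 ± 0.05 missed the threshold (edgeR adjusted p = 0.0655), passed it without KO 1 (-0.18, adjusted p = 0.0120), without WT 2 (-0.16, adjusted p = 0.0365) and without WT 4 (-0.15, adjusted p = 0.0447), and was 0.00 ± 0.04 with density offsets (adjusted p = 0.953). With the library total in the model it was 0.02 ± 0.07 (adjusted p = 0.913).

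Gria4 was the AMPA subunit with a positive fold change in all 3 fits. WT libraries ran from 163 over 180 to 192 CPM, and the KO libraries held 193, 170, 184, 189 and 188 CPM (KO 1, KO 2, KO 3, KO 4 and KO 6). The ranges overlapped, and the log2 fold change of 0.05 ± 0.05 was not called (edgeR adjusted p = 0.437). It was 0.08 ± 0.04 with density offsets (adjusted p = 0.186) and 0.17 ± 0.07 with the library total in the model (adjusted p = 0.337).

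**Figure D4:**
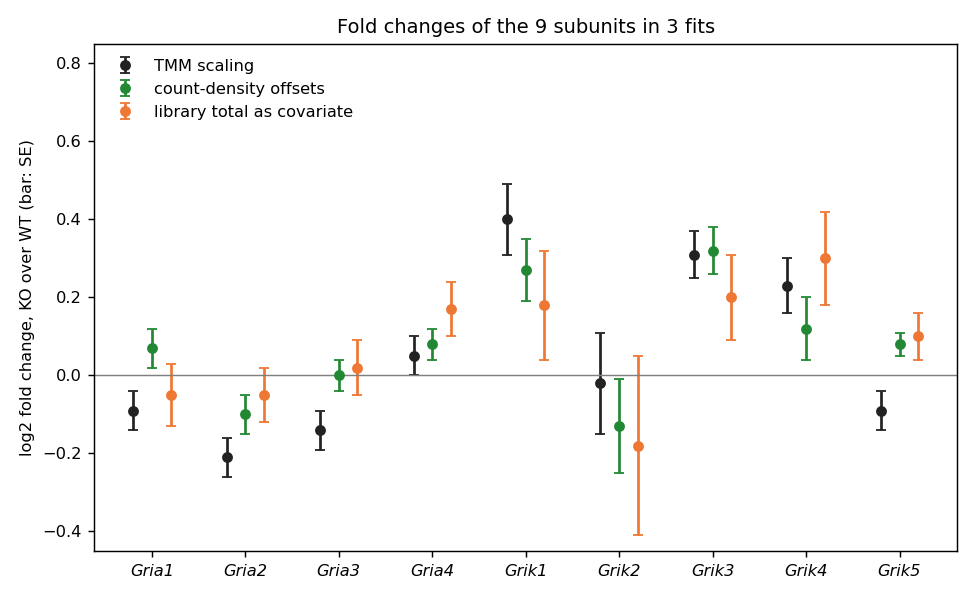
Log2 fold change (KO over WT) of each gene with its SE in the fit with TMM scaling (black), with count-density offsets (green) and with the library total in the model (orange). Grik3 has 0.31, 0.32 and 0.20 in the 3 fits, Gria2 moves from -0.21 to -0.10 and -0.05, and Gria1, Gria3 and Grik5 move to or across 0 with density offsets.

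**Figure D5:**
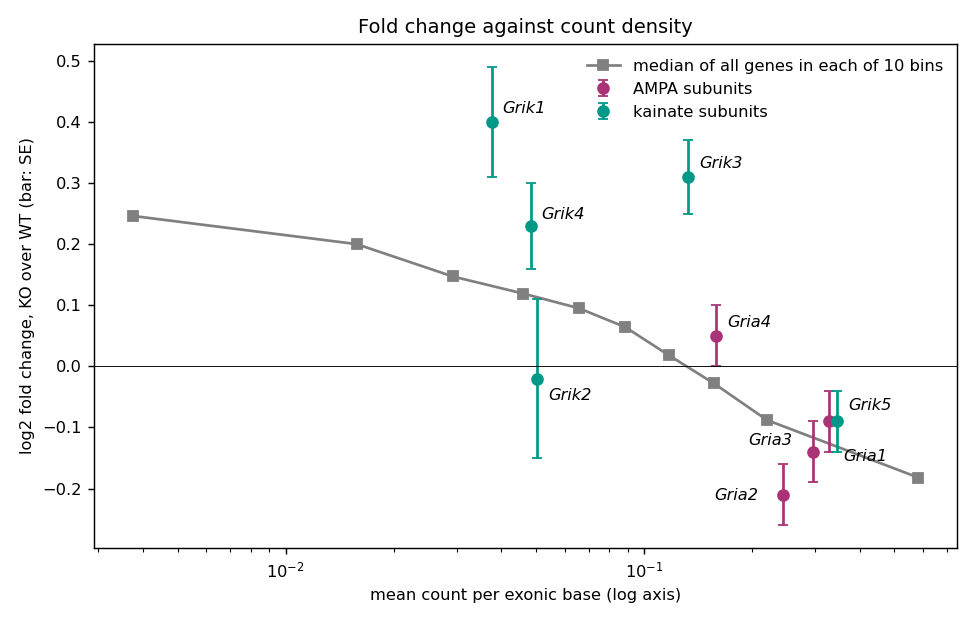
Log2 fold change with SE of the AMPA (purple) and kainate (green) subunits against the mean count per exonic base on a log axis, with the median of all genes in each of 10 density bins as grey squares. Grik5, Gria1 and Gria3 lie in the highest bin, where the median is -0.182, and Grik3 lies above the median of its own bin by 0.29.

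The mix of subunits within each library does not depend on the scaling between libraries, although it still carries the density trend. The percentages also depend on the exonic length used. With the exons of all GENCODE transcripts the WT level of Gria3 was 31.0 CPM per exonic kb, against 57.7 with the length used here. Gria2 made up 23.6% to 25.3% of AMPA counts per kb in WT and 22.1% to 23.6% in KO, with KO 1 and WT 1 both at 23.6% when rounded. Gria4 made up 13.4% to 15.3% in WT and 15.5% to 17.0% in KO, so the shares of Gria4 did not overlap either. Its CPM did overlap, and Gria4 was not called (log2 fold change 0.05, edgeR adjusted p = 0.437). The shares of Gria1 (30.6% to 33.7% in WT, 31.0% to 35.3% in KO) and Gria3 (28.4% to 30.0% and 26.0% to 29.6%) overlapped. Among the kainate genes Grik5 made up 59.2% ± 1.78 in WT and 53.4% ± 3.20 in KO (SD), and Grik3 made up 19.7% ± 1.25 and 23.5% ± 1.69, with overlap for both. Kainate genes together made up 34.9% to 37.2% of the summed level per kb of all 9 genes in WT and 38.4% to 39.7% in KO. These shares are given as a description, with no test and no rate of non-overlap over other genes to set them against.

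The genes whose log2 CPM followed a called member most closely over the 12 libraries were Rad54l2 (Pearson r 0.975), Nrip1 (0.974) and Bcl9l (0.967) for Grik3. For Gria2 they were Gspt1 (0.960), Ddx5 (0.955) and Nedd4 (0.953). For Grik1 they were Wdr59, Sec24d and Ifrd2 (0.956, 0.956 and 0.944), and for Grik4 Trip10, Endov and 1110032A03Rik (0.951, 0.948 and 0.936). These values share the group difference and the depth of the libraries.

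Genes that encode partners of these receptors were counted in the same libraries. The term partner genes here also takes in 3 genes of the RNA editing family and 8 NMDA and delta receptor genes. Of the 54 tested, 6 rose and 12 fell with TMM scaling, where 15.3% and 14.4% of all tested genes did, and 8 rose and 3 fell with density offsets (8.44% and 7.97%). The counts of each partner list below have to be read beside these same shares. With the library total in the model edgeR called 0 of the 54 higher and 0 lower (5 and 1 at an unadjusted p under 0.05), so each call named in the following lists was lost there. Of 13 AMPA receptor auxiliary subunits, which ride with the channel and set its gating, 0 rose and 2 fell by edgeR (0 and 4 at an unadjusted p under 0.05; 0 and 3 by DESeq2), with a median log2 fold change of -0.068. Cnih2, a cornichon, had 124 ± 3.56 CPM in WT and 104 ± 12.7 in KO (log2 fold change -0.26 ± 0.06 SE, adjusted p = 0.00553; -0.04 with density offsets, adjusted p = 0.403). Cacng7, a TARP, had 65.6 ± 3.59 and 56.4 ± 4.35 CPM and was called with TMM scaling and with density offsets (-0.22 ± 0.06, adjusted p = 0.00840; -0.20 with density offsets, adjusted p = 0.0182), but not with the library total in the model (-0.10, adjusted p = 0.655). The TARP gene Cacng2, which encodes stargazin, was not called, at -0.12 ± 0.08 (adjusted p = 0.282). Cacng2 was named after its value was seen.

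Of the 4 kainate receptor partners 1 rose. Neto1, an auxiliary subunit that slows kainate receptor gating, had 100 ± 11.2 CPM in WT and 114 ± 4.03 in KO (log2 fold change 0.19 ± 0.06, edgeR adjusted p = 0.0400; 0.10 with density offsets, adjusted p = 0.261), and DESeq2 called 0 of the 4. Its relative Neto2, named after its value was seen, was at 0.02 ± 0.06. Among 6 AMPA receptor assembly factors 0 rose and 2 fell, as by DESeq2 and at an unadjusted p under 0.05 in edgeR: Abhd12 (-0.32 ± 0.06, adjusted p = 0.00224) and Sacm1l (-0.11 ± 0.04, adjusted p = 0.0457), and with density offsets neither passed (adjusted p = 0.0807 and 0.245).

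Of 20 genes of anchoring, trafficking and clustering 2 rose and 7 fell, and 3 rose and 2 fell with density offsets. Grip2, a PDZ scaffold that binds the Gria2 and Gria3 proteins, went from 49.5 ± 5.20 to 69.1 ± 7.21 CPM, with all 5 KO libraries above all WT libraries (log2 fold change 0.49 ± 0.08 SE, edgeR adjusted p = 7.65e-04; 0.39 with density offsets, adjusted p = 0.00255; 0.28 with the library total in the model, adjusted p = 0.380). Such a gap, with KO above WT, was present in 5.84% of all tested genes. Rab11a had the reverse gap, with all 5 KO libraries below all WT libraries. Grip1, the paralog of Grip2, was at 0.25 ± 0.09 (adjusted p = 0.0406) and missed the threshold with density offsets (adjusted p = 0.329). The falls included Nsf, an ATPase that binds the Gria2 protein (-0.22 ± 0.05, adjusted p = 0.00384; 0.04 with density offsets), Rab11a of recycling endosomes (-0.19 ± 0.04, adjusted p = 0.00273; -0.06 with density offsets) and Dlg4, which encodes the scaffold PSD-95. Dlg4 had 355 ± 13.1 CPM in WT and 297 ± 25.8 in KO (-0.26 ± 0.05, adjusted p = 0.00229; -0.10 with density offsets, adjusted p = 0.0160; -0.05 with the library total in the model, adjusted p = 0.659).

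Of the 3 genes of the RNA editing family 1 rose with TMM scaling and 3 with density offsets. Adarb2, whose protein binds RNA but has no known editing activity and which also marks a class of interneurons, went from 29.8 ± 3.70 to 48.0 ± 6.28 CPM, with no overlap between the groups (log2 fold change 0.69 ± 0.09 SE, edgeR adjusted p = 2.48e-04; 0.54 with density offsets, adjusted p = 5.01e-04; 0.39 with the library total in the model, adjusted p = 0.245). A gap with KO above WT was also present for Grin2d, described below, and for 5.84% of all tested genes. Adarb1, the enzyme that edits the Q/R codon of Gria2, and Adar, another editing enzyme, were named after their values were seen. Adarb1 had 296 ± 17.0 CPM in WT and 311 ± 9.04 in KO, a log2 fold change of 0.07 ± 0.04 (adjusted p = 0.242) that was 0.18 and passed with density offsets (adjusted p = 0.0140). Adar had 272 ± 7.95 and 273 ± 6.45 CPM, a log2 fold change of 0.01 ± 0.03 (adjusted p = 0.920) that was 0.11 and also passed with density offsets (adjusted p = 0.0277). Among the 8 NMDA and delta receptor genes tested, Grin3b not being analysed here, 2 rose and 1 fell, with a median of 0.313, against 3 higher, 1 lower and -0.019 for the 9 AMPA and kainate genes. The medians were 0.199 and 0.076 with density offsets, and 0.086 and 0.097 with the library total in the model. Grin2d rose (0.44 ± 0.09 SE, edgeR adjusted p = 0.00208; 0.29 with density offsets, adjusted p = 0.0303), as did Grin3a (0.35 ± 0.08, adjusted p = 0.00409; 0.26 with density offsets, adjusted p = 0.0256). Grin1 fell (-0.18 ± 0.06, adjusted p = 0.0302; -0.03 with density offsets, adjusted p = 0.668).

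Markers of other cell types also differed between the groups. With TMM scaling 15.3% of all tested genes rose and 14.4% fell. Of 6 markers of oligodendrocyte precursors, cells that carry AMPA and kainate receptors, 4 rose by edgeR, and their sums were 375 to 438 CPM in WT and 443 to 504 in KO. Of 7 microglia markers 4 fell, with sums of 427 to 540 CPM in WT and 396 to 412 in KO. None of these 13 markers was at 0 in any library. Of 9 excitatory neuron markers 0 rose and 2 fell by edgeR, as by DESeq2, with 1 and 2 at an unadjusted p under 0.05 (sums 1548 to 1892 CPM in WT, 1395 to 1899 in KO). Of the other lists, 3 of 6 endothelial markers rose, 3 of 7 oligodendrocyte markers and 1 of 7 astrocyte markers fell, and 0 of 4 hippocampus markers were called by edgeR or DESeq2 (1 at an unadjusted p under 0.05). With the library total in the model 0 precursor markers rose and 1 microglia marker fell, where 0.588% and 0.0771% of all tested genes did. At an unadjusted p under 0.05 edgeR had 1 and 2 in that fit. With density offsets 3 precursor markers rose and 3 microglia markers fell, where 8.44% and 7.97% of all tested genes did. With those offsets edgeR called 0 higher and 0 lower in the lists of excitatory neurons (0 and 0 at an unadjusted p under 0.05), endothelium (1 and 0), oligodendrocytes (2 and 1) and astrocytes (1 and 0). The list medians then turned from -0.159 to 0.061 for oligodendrocytes and from -0.072 to 0.075 for astrocytes. The part of these cell types in the changes of Grik1, Grik3, Grik4 and Gria2 was not tested.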

How the data were processed

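Frontal cortex RNA from 12 mice was sequenced, and the authors deposited raw counts of reads, 1 column per mouse, in rows named by symbol and RefSeq accession. The submitters' processing notes name STAR and mm10. No source used here gives the counter, its strand setting or how duplicate reads were treated, so reads of close paralogs may be shared.

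Groups and mouse numbers came from the sample titles. The counts were fitted in R 4.3.3 with edgeR 4.0.16 (TMM, filterByExpr, quasi-likelihood fit, group alone in the model; permutation tests two-sided). The SE is the fold change over the root of the F statistic, and permutation tests used log2(CPM + 0.5). Density offsets are a lowess curve (span 0.3) of each library's log2 CPM, relative to the gene's mean, on log2 count per exonic base. The curves were centred over the libraries. Exonic length is the union of GENCODE M21 exons of the RefSeq transcripts that the table pairs with a gene (14734 genes; 123 by symbol; 52 had none). The main fit and the offsets were also run on simulated counts that held no trend with count density. That run does not show whether the offsets remove such a trend.

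The members, lists and settings were chosen with earlier results of these data known. Named genes are the 9 members, Upf3b, up to 3 passing genes per direction and list by smallest p, 2 genes of a list where none passes, and the 3 genes most like each called member. DESeq2 1.42.0 and limma 3.58.1 (voom) served as other tests. Depth was 4684039 to 6617759 counts, and the biological coefficient of variation was 8.11%.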

Additional observations from a re-analysis of the deposited data

Results flagged for a closer look

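Gria2 in KO 1 stood at 491 CPM, apart from the other 4 KO libraries at 417 to 435 CPM. Its gap to the nearest library was 0.754 of the KO range, above the limit of 0.71 for 5 samples. It was the 1 of 18 combinations of gene and group that passed this limit, and chance flags about 5% of them. KO 1 held 4990643 counts, against 6068895 to 6617759 in the other KO libraries, and Gria3 (311 CPM), Gria4 (193 CPM) and Grik5 (269 CPM) were also highest there among the KO libraries. Without KO 1 the log2 fold change of Gria2 was -0.25 (edgeR adjusted p = 0.00155). The part of depth in the value of KO 1 was not tested.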

How the results depend on the processing

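Of the 9 subunits 3 were called higher. That count was 0 with the library total as a covariate, 1 with density offsets and KO 1 left out, and 2 to 3 in the fits that left out 1 library each. The 1 lower call became 2 with DESeq2 size factors, upper-quartile factors, the DESeq2 Wald test or no filter on low counts. It became 0 with density offsets (with and without KO 1), the library total as a covariate, the replicate block or an adjusted p under 0.01, and 1 to 3 without 1 library, with 3 without KO 1 and 2 without WT 2 or WT 4. The added lower gene under other scalings was Gria3.

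Of the 54 partner genes tested 6 were higher and 12 lower. The higher count was 8 with density offsets, 0 with the total as a covariate and 4 to 7 without 1 library. The lower count was 7 with the replicate block, 3 with density offsets, 0 with the total as a covariate, 6 at an adjusted p under 0.01 and 7 to 15 without 1 library, with the lowest count without KO 4. Upf3b ranged from -3.92 to -3.64 without 1 library.

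Signs turned with density offsets for Gria1 (0.07; 0.09 without KO 1), Gria3 (0.0043) and Grik5 (0.08; 0.06 without KO 1), and with the total as a covariate for Gria3 (0.02) and Grik5 (0.10). Grik2, at -0.02, ranged from -0.12 to 0.08 without 1 library and turned without WT 4, WT 6 or KO 3. The cause was not tested.

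Over all genes, 2183 were higher and 2050 lower; with density offsets 1205 and 1137, with the total as a covariate 84 and 11, and with the replicate block 1129 and 1186. The share of calls that were higher was 51.6%, and 88.4% with the total as a covariate. The labels do not say that equal mouse numbers pair the samples. Same-numbered deviations correlated at -0.376 to 0.142 over 5 pairs, and 0 KO libraries matched their own number best. The mice were therefore treated as unpaired, though these values do not settle whether equal numbers shared a litter or day. With the replicate block the log2 fold change of Gria2 was -0.19 and that of Grik4 0.21 (edgeR adjusted p = 0.0843 and 0.0933).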
